A study of Mus musculus with 36 samples.

Results

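Transcripts of 9 genes that cut, modify or relay the Notch receptor were followed in mouse duodenal organoids given timed pulses of DAPT. They were named for their roles, by a rule that used no measured value, though earlier results of these data were known, and are 9 of 34197 genes in the count table. The list holds Psen2, Ncstn, Aph1a and Psenen of the gamma-secretase complex, the sheddases Adam10 and Adam17, the nuclear proteins Rbpj and Maml1, and the glycosyltransferase Pofut1. All 9 passed the filter on low counts that left 11462 genes for testing.

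Organoids, self-organising cultures of gut epithelium, were grown from the duodenum of C57BL/6 mice, male or virgin female and older than 8 weeks, and were not enriched for a cell type. Every group was kept in medium with epidermal growth factor, Noggin and R-Spondin 1 and was loaded into a flow chip. DAPT, an inhibitor of gamma-secretase, was pulsed with a period of 90 min at 1.38 µM, of 130 min at 2 µM or of 170 min, for which the labels name 2.6 µM and also 2 µM without saying which was sequenced. The control was DMSO, and whether it was pulsed is not given in the sources used here. Each treatment lasted 24, 48 or 72 h, with 3 libraries for each of the 12 combinations, so every treatment had 9 libraries and every duration 12. Each library came from 20 to 50 organoids, and nothing in the labels says whether the 3 came from separate cultures or mice, and the p-values below therefore reflect spread among these libraries that may be technical. Organoids were passaged 3, 2 and 1 days before the 24, 48 and 72 h experiments, so duration and time since passage cannot be told apart. Period and dose likewise moved together, unless the 170 min pulses were at 2 µM, which would give them the dose of the 130 min pulses.

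Notch signalling starts when a ligand on one cell pulls on the receptor of its neighbour. A sheddase, chiefly ADAM10 and in some settings ADAM17, then removes the outer part of the receptor, and gamma-secretase cuts the remaining stub inside the membrane. The freed intracellular domain enters the nucleus, joins the DNA-binding protein RBPJ and recruits a Mastermind-like co-activator such as MAML1. POFUT1 acts earlier, by placing O-fucose on the receptor's EGF-like repeats. In the gut, Notch keeps crypt progenitors from turning into secretory cells, and its blockade yields more goblet cells. DAPT binds the gamma-secretase protein, so a transcript level says nothing of how active the enzyme was.

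The sequence upstream of the start site is shown for Adam10 and Ncstn, the members with the smallest p-values against DMSO, and for Rbpj, whose own product binds DNA. RefSeq windows on GRCm38.p6, from 250 bases before to 50 after a start, matched all 9 members in 12 windows. The 250 bases before the start are printed 5′ to 3′ along the gene's strand, with capitals for TGGGAA or its reverse complement TTCCCA, the core bound by RBPJ. They lie at chr9:70678732-70678981 on the plus strand, chr1:172082750-172082999 on the minus strand and chr5:53590096-53590345 on the plus strand.
Adam10: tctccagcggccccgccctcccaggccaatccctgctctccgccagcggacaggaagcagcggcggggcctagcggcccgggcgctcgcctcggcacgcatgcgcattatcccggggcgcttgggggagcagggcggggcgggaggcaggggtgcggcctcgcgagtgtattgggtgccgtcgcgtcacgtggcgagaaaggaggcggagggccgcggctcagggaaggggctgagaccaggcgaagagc
Ncstn: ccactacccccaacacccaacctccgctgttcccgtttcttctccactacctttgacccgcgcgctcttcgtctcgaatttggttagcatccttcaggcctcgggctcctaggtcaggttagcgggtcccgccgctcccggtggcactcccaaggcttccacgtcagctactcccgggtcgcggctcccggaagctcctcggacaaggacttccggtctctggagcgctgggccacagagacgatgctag
Rbpj: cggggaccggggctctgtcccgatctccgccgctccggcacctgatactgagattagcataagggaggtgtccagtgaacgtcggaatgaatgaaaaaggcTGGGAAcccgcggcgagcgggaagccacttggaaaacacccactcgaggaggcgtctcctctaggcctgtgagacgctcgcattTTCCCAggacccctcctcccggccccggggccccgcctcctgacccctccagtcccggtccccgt

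Searched on both strands over the whole 300 bases, the core stood in 5 of the 12 windows, belonging to 4 genes, against 25.6% of 32851 windows of all genes. Rbpj held it 149 and 65 bases before its first start, and the nearer of those also lies in its second, overlapping window. Psen2 held it 89 bases before the more downstream of its 2 starts, and Psenen 92 bases before the more downstream of its 2. The window of the upstream start held no core in either gene. Aph1a held it 3 bases before its start. The longer form GTGGGAA, which contains the core, was found in the windows of Psen2 and Aph1a and in 6.38% of all windows. Windows of Ncstn, Adam10, Adam17, Maml1 and Pofut1 held no core. G and C made up 74.0% of the Adam10 stretch, 63.2% of the Ncstn stretch and 65.2% of the Rbpj stretch. A match is a run of letters and was not tested for binding.

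Library totals ran from 482741 to 1447330 molecules with a median of 958749. They were not even between treatments, with means of 859263 ± 211800 in DMSO, 1058607 ± 200400 at 90 min, 855825 ± 150700 at 130 min and 1093666 ± 201200 at 170 min (SD, n = 9 each). The epithelial markers fitted the labelled tissue: all 6 genes were detected, with Epcam between 368.5 and 570 CPM. Of 3 genes taken here as markers of mouse duodenum, Gata4 lay between 130.4 and 213.1 CPM and Pdx1 between 33.1 and 69.5 CPM. The third, Cubn, was near absent at 0 to 5.47 CPM. CPM are counts scaled to a common library size, for the marker genes in this paragraph by the plain library total and for all levels below by totals adjusted with the TMM method. Markers of 3 other cell types were near absent. The summed level of 6 fibroblast genes was 0 to 38.5 CPM with 5 of the 6 at a median of 0, that of 5 immune genes was 2.73 to 19.7 CPM and that of 4 endothelial genes 0.828 to 11.7 CPM. Mitochondrial transcripts took 0.867% to 1.48% of a library. The organoids hold several epithelial cell types, so fewer cells of a type and less RNA per cell cannot be told apart in any value below.

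**Figure D1:**
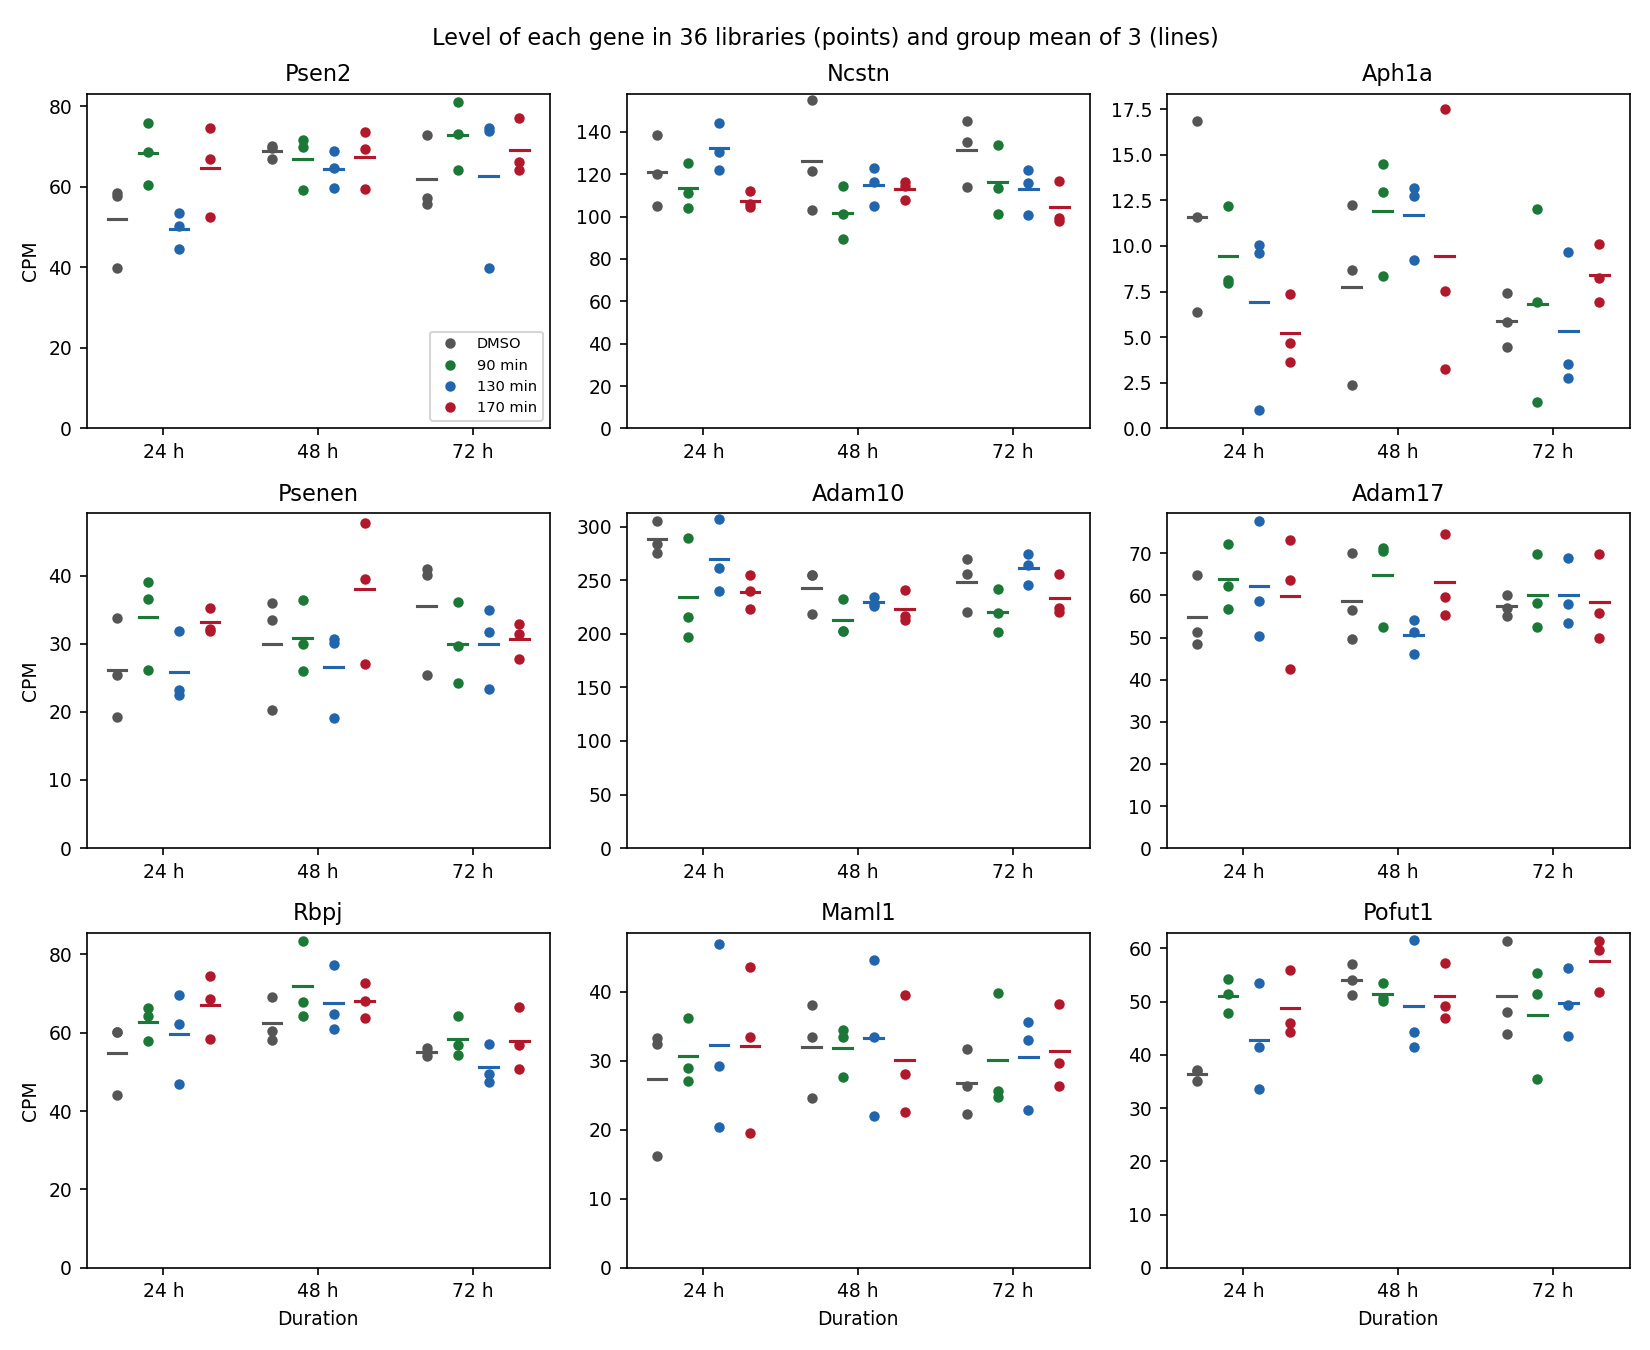
Level of each of the 9 genes in CPM (vertical axis, from 0) at 24, 48 and 72 h, with 1 point per library, colours for DMSO and the 3 pulse periods, and a line at the mean of 3. Adam10 in the 3 DMSO libraries at 24 h sits between 275 and 305 CPM, Pofut1 in the same libraries between 35.0 and 37.2 CPM, and Aph1a runs from 1.01 to 17.5 CPM over all libraries.

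No member passed an adjusted p of 0.05 in any of the 24 comparisons (edgeR quasi-likelihood test, Benjamini-Hochberg over 11462 genes). Against DMSO, averaged over durations, 0 of 9 members were called at 90 min, at 130 min, at 170 min and for all periods together, where the share of all genes called was also 0%. At an unadjusted p under 0.05 the count was 2 of 9 at 90 min against 7.92% of all genes, 0 of 9 at 130 min against 5.49%, 2 of 9 at 170 min against 8.64% and 2 of 9 for all periods against 6.67%. The members behind those counts were Adam10 and Ncstn each time, both with negative values. At 90 min their unadjusted edgeR p-values were 0.00277 and 0.0209, and at 170 min 0.0288 and 0.00950. Among the remaining 7 members the log2 differences for all periods ran from -0.01 for Aph1a to 0.13 for Rbpj. DESeq2 called 0 members in each of these comparisons as well, and 0, 7, 0 and 0 genes in all. The median log2 difference of the 9 members was 0.11 at 90 min, -0.03 at 130 min and 0.12 at 170 min, where that of all tested genes was 0.02, -0.0043 and 0.01. The 3 comparisons share their 9 DMSO libraries. Of the 27 differences of a member at 1 period from DMSO, 10 turned sign when libraries were left out and 14 kept it but moved by over 1.5 times. The other 3 were Adam10 at 90 and 170 min and Ncstn at 170 min. Such a limit, relative to the value itself, favours differences that are large for their SE. With the library total in the model these 3 values, Adam10 at 90 and 170 min and Ncstn at 170 min, all moved by more than 1.5 times.

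**Figure D2:**
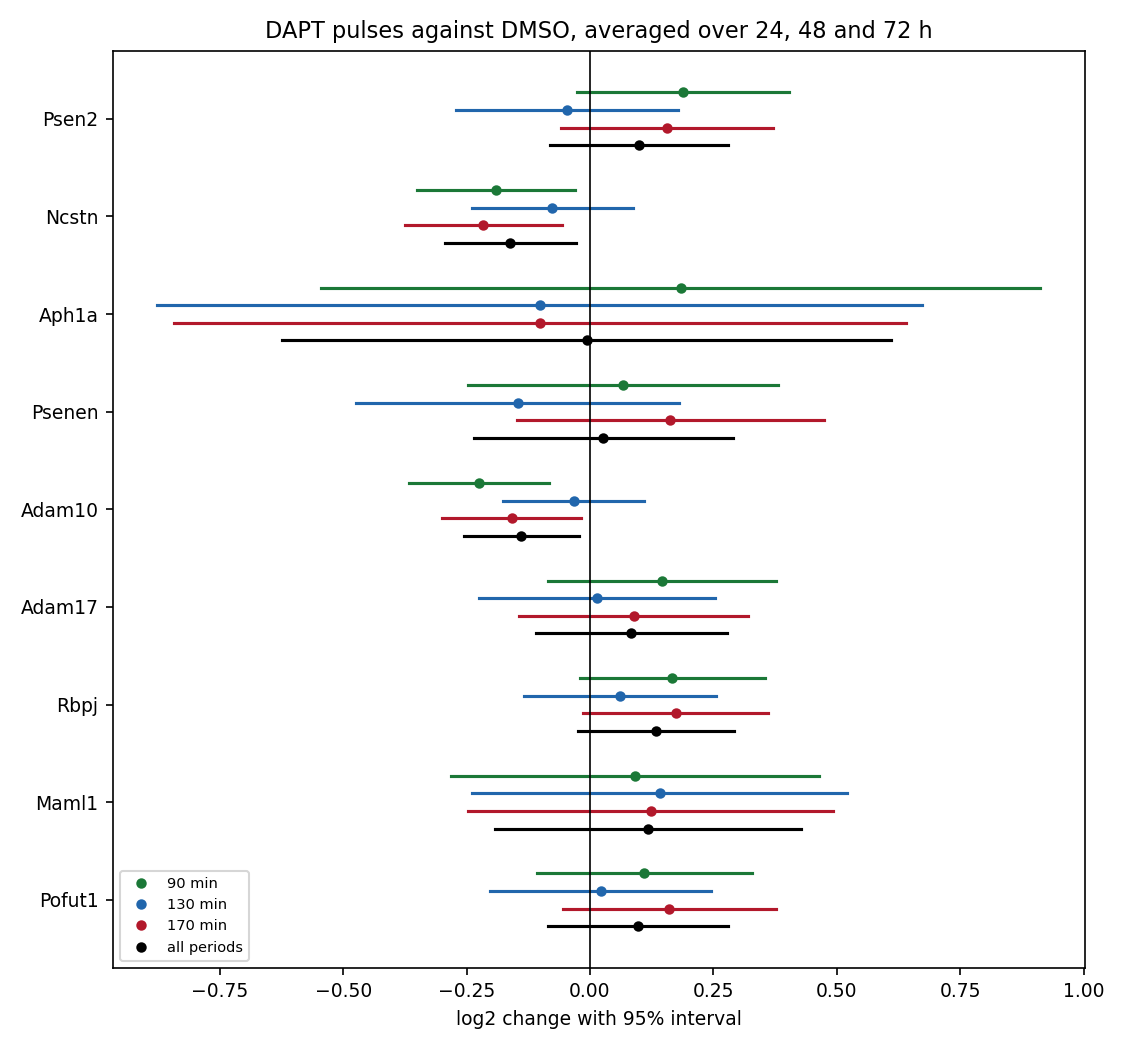
Log2 change of each gene for 90, 130 and 170 min pulses and for all periods against DMSO, averaged over durations (horizontal axis, points with 95% intervals, 9 DMSO libraries shared by all). The intervals of Ncstn and Adam10 lie below 0 for 90 min, 170 min and all periods, and all other intervals cross 0.

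Nicastrin, the product of Ncstn, is the large glycoprotein subunit through which gamma-secretase takes hold of a shed receptor stub. Its lowest, median and highest levels were 103, 121 and 155 CPM in the 9 DMSO libraries. They were 89.7, 111 and 134 CPM at 90 min, 101, 122 and 144 CPM at 130 min and 97.9, 108 and 117 CPM at 170 min. All ranges overlapped, and the 170 min libraries were the tightest, with a coefficient of variation of 6.60% against 14.2% in DMSO. With 87 to 156 counts per library at 170 min and 52 to 152 in DMSO, counting error enters both, and their difference was not tested. The log2 difference from DMSO was -0.19 (SE 0.079, adjusted p = 0.627) at 90 min and -0.22 (SE 0.078, adjusted p = 0.537) at 170 min. At 130 min it was -0.08 with a 95% interval of -0.24 to 0.09. Leaving out libraries moved the 90 min value between -0.31 (without replicate 1 of every group) and -0.13 (without replicate 2 of every group). The Ncstn gene overlaps Copa on the opposite strand, with 131 to 319 Copa counts per library against 52 to 156 for Ncstn. The sources used here do not say whether counting used strand, and reads of the pair may not have been told apart.

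Psen2 encodes presenilin 2, a catalytic subunit of gamma-secretase. Lowest, median and highest levels of Psen2 were 39.7, 58.4 and 72.9 CPM in DMSO, 59.2, 69.8 and 81.1 CPM at 90 min, 39.8, 59.8 and 74.6 CPM at 130 min and 52.4, 66.9 and 77.0 CPM at 170 min. The libraries under 50 CPM belonged to DMSO and 130 min alone. Differences from DMSO were 0.19 (SE 0.11), -0.05 and 0.16 on the log2 scale for 90, 130 and 170 min, with adjusted p-values of 0.662, 0.994 and 0.662.

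Psenen encodes PEN-2, the small subunit needed for presenilin to mature by cutting itself. It ranged from 19.2 to 41.0 CPM in DMSO, 24.2 to 39.1 at 90 min, 19.1 to 34.9 at 130 min and 27.0 to 47.7 at 170 min. The DMSO range takes in most libraries of the pulsed groups. On the log2 scale its differences from DMSO were 0.07, -0.15 and 0.16 for 90, 130 and 170 min, with unadjusted p-values of 0.669, 0.367 and 0.294. Leaving out libraries moved them between -0.20 and 0.22, between -0.28 and -0.03, and between 0.06 and 0.31, with the lower end each time without replicate 3 of every group and the upper end without replicate 2. A pseudogene, Psenen-ps, has a row of its own with 0 to 4 counts per library, against 11 to 57 for Psenen.

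Aph1a encodes a scaffold subunit on which the complex is assembled. With 1 to 20 counts per library, it was the most thinly counted member. Levels ran from 2.38 to 16.9 CPM in DMSO and from 1.01 to 17.5 CPM over all 36 libraries, with a coefficient of variation of 49.8%. The 95% interval of its 90 min difference reached from 0.685-fold to 1.88-fold of DMSO, whereas that of Ncstn reached from 0.784-fold to 0.979-fold. Aph1b and Aph1c, alternative scaffolds, did not pass the filter, with 169 and 49 counts over all libraries.

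ADAM10, a membrane metalloprotease, makes the ligand-dependent cut in Notch. Adam10 was the most fully counted member, with 123 to 357 counts per library. Its lowest, median and highest levels were 218, 256 and 305 CPM in DMSO, 197, 216 and 290 CPM at 90 min, 226, 245 and 307 CPM at 130 min and 213, 224.5 and 256 CPM at 170 min. The median of both the 90 and the 170 min libraries lay near the lowest DMSO library, while the 130 min libraries lay within or just above the DMSO range. The log2 difference from DMSO was -0.23 (SE 0.070, adjusted p = 0.627) at 90 min, -0.03 (SE 0.070) at 130 min and -0.16 (SE 0.069, adjusted p = 0.544) at 170 min. Those values are 0.775-fold to 0.944-fold, 0.885-fold to 1.08-fold and 0.813-fold to 0.988-fold of DMSO at the bounds of their 95% intervals. The 90 min value stayed negative at each duration, at -0.32 at 24 h, -0.19 at 48 h and -0.17 at 72 h.

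Adam10 also moved with the total of a library. Within the 12 groups its level fell by 0.27 on the log2 scale for each doubling of the total (edgeR, adjusted p = 0.0108), a slope that 15.9% of all genes also passed in one direction or the other. Leaving out replicate 1 of DMSO at 24 h, which had the smallest total, gave a slope of -0.32 (adjusted p = 0.00532). For Ncstn it was -0.21 (adjusted p = 0.178). Adam10 was the only member of the 9 whose slope was called. Mean totals were higher at 90 and 170 min than in DMSO or at 130 min. The mean levels of Adam10 and Ncstn were lower at 90 and 170 min than in DMSO or at 130 min, with overlapping ranges. With the total in the model the Adam10 difference from DMSO was -0.14 at 90 min and -0.06 at 170 min. The Ncstn difference became -0.12 and -0.14. The adjusted p was 1.00 for both genes in each of these 4 cases. What sets the totals apart was not tested.

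**Figure D3:**
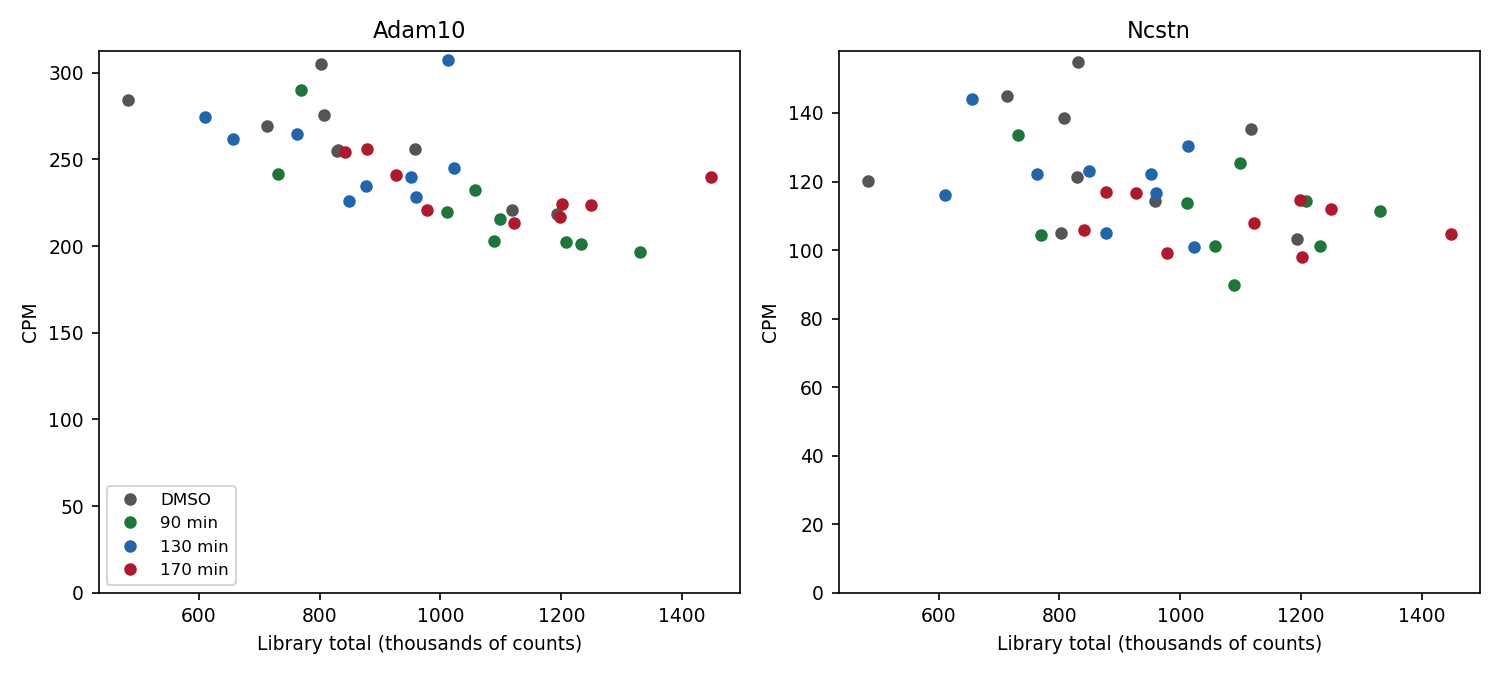
Level of Adam10 (left) and Ncstn (right) in CPM against the library total, 1 point per library, coloured by treatment, with vertical axes from 0. The 3 libraries with the lowest totals, 482741, 610977 and 656157 counts, belong to DMSO and 130 min, and the Adam10 points run downward as the total grows.

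ADAM17 sheds growth factors and cytokines and can cut Notch without ligand. Adam17 ranged from 48.6 to 70.2 CPM in DMSO, 52.4 to 72.3 at 90 min, 46.2 to 77.8 at 130 min and 42.6 to 74.5 at 170 min. Each pulsed range covered nearly the whole control range. Its log2 differences were 0.15, 0.01 and 0.09, with unadjusted p-values of 0.205, 0.900 and 0.442. At 90 min the values of the sheddases had opposite signs, but the difference between the pair was not tested. Adam17 overlaps Iah1, which had 31 to 102 counts per library.

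RBPJ is the DNA-binding partner of the Notch intracellular domain and holds target genes silent without it. Rbpj had lowest, median and highest levels of 44.1, 58.2 and 69.0 CPM in DMSO, 54.4, 64.3 and 83.5 CPM at 90 min, 47.0, 61.0 and 77.4 CPM at 130 min and 50.7, 66.6 and 74.5 CPM at 170 min. Medians were higher in the pulsed groups and ranges overlapped throughout. The log2 difference was 0.17 (SE 0.092, adjusted p = 0.653) at 90 min, 0.06 at 130 min and 0.17 (SE 0.092, adjusted p = 0.591) at 170 min. For all periods it was 0.13, and 0.02 without replicate 2 of every group. A row for the pseudogene Rbpj-ps3 held 0 to 2 counts per library.

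MAML1 is a co-activator that joins RBPJ and the Notch intracellular domain. Maml1 ran from 16.2 to 38.1 CPM in DMSO, 24.7 to 39.8 at 90 min, 20.4 to 47.0 at 130 min and 19.5 to 43.6 at 170 min. The control and pulsed ranges largely coincided. Differences from DMSO of 0.09, 0.14 and 0.12 had 95% intervals reaching 1.38-fold, 1.44-fold and 1.41-fold, and the gene had 7 to 65 counts per library.

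POFUT1, an enzyme of the endoplasmic reticulum, fucosylates Notch and is needed for ligand binding. Pofut1 ran from 35.0 to 61.3 CPM in DMSO, 35.6 to 55.3 at 90 min, 33.5 to 61.5 at 130 min and 44.3 to 61.4 at 170 min. Of these only the 170 min group had no library under 40 CPM. Averaged over durations its log2 differences were 0.11, 0.02 and 0.16, with unadjusted p-values of 0.311, 0.847 and 0.148.

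Single durations set 3 libraries against 3, and 0 of 9 members were called in each of these 9 comparisons, as were 0% of all genes. At an unadjusted p under 0.05 there were 3 of 9 members for 90 min at 24 h against 9.69% of all genes, and 1 of 9 for 170 min at 24 h against 12.4%. There was 1 of 9 for 90 min at 48 h against 1.53%, 1 of 9 for 170 min at 72 h against 2.17%, and 0 of 9 in the other 5 comparisons. The pulsed libraries lay wholly above or below those of DMSO in 4 of 81 pairings of a member with a comparison, against 10.1% over all genes. All 4 were at 24 h, 2 of 9 members at 90 min against 12.6% of all genes and 2 of 9 at 170 min against 15.1%. At 24 h Pofut1 was 37.0, 35.0 and 37.2 CPM in the DMSO libraries and 47.8, 54.2 and 51.4 CPM at 90 min. At 170 min it was 56.0, 45.9 and 44.3 CPM, and at 130 min 53.6, 41.4 and 33.5 CPM. All 90 and 170 min libraries lay above all DMSO libraries, and the 130 min libraries straddled them. The log2 differences were 0.49 (SE 0.20, adjusted p = 0.466) at 90 min, 0.41 (SE 0.20, adjusted p = 0.404) at 170 min and 0.26 (SE 0.21) at 130 min. At 48 h the same differences were -0.07, -0.09 and -0.13, and at 72 h -0.09, 0.16 and -0.06. The 24 h DMSO group had the lowest mean Pofut1 of the 12 groups, 36.4 ± 1.18 CPM (SD, n = 3), and the lowest mean total, 697589. Its libraries held only 16, 27 and 29 Pofut1 counts, so that small SD does not show how exact the levels are. With the total in the model the 24 h differences at 90 and 170 min were 0.48 and 0.40.

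Adam10 at 24 h was 284, 305 and 275 CPM in DMSO, the highest group mean of the 12 at 288 ± 15.1 CPM (SD, n = 3). It was 216, 290 and 197 CPM at 90 min, 240, 307 and 262 CPM at 130 min and 254.5, 223 and 240 CPM at 170 min. All 170 min libraries were below all DMSO libraries, and 1 of the 90 min libraries was not. The log2 differences were -0.32 (SE 0.12, adjusted p = 0.458) at 90 min and -0.27 (SE 0.12, adjusted p = 0.365) at 170 min. Without 90 min 24 h replicate 2 the first was -0.49, and with library totals in the model the pair were -0.16 and -0.07.

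Psen2 at 24 h was 57.8, 58.4 and 39.7 CPM in DMSO and 60.5, 75.8 and 68.7 CPM at 90 min, without overlap, a log2 difference of 0.40 (SE 0.19, adjusted p = 0.509). Without replicate 3 of every group it was 0.23. Ncstn was the member counted at 48 and 72 h. At 48 h it was 103, 155 and 121 CPM in DMSO and 114, 89.7 and 101 CPM at 90 min, overlapping, with a difference of -0.29 (SE 0.13, adjusted p = 1.00). Without replicate 2 of every group that value was -0.05. At 72 h it was 145, 135 and 114 CPM in DMSO and 99.3, 97.9 and 117 CPM at 170 min, overlapping by 1 library, with a difference of -0.33 (SE 0.14, adjusted p = 1.00). A test of whether the differences between treatments varied with duration called 0 of 9 members and 0% of all genes, with unadjusted p-values from 0.318 for Pofut1 to 0.994 for Maml1.

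Comparing pulse periods with one another asked whether the rhythm of inhibition, with its dose, was reflected in the machinery itself. Again 0 of 9 members and 0% of all genes were called in each of 3 comparisons. For 90 against 130 min, 2 of 9 members had an unadjusted p under 0.05 against 11.8% of all genes. One was Adam10, at -0.19 (SE 0.070, adjusted p = 0.360), and the other Psen2, at 0.24 (SE 0.11, adjusted p = 0.403). With the library total in the model these were -0.12 and 0.22. Without 130 min 72 h replicate 3, whose Psen2 level of 39.8 CPM stood beside 73.9 and 74.6 CPM in its group, the Psen2 value was 0.14. DESeq2 called 3 genes in this comparison and no member.

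For 170 against 130 min the count was 0 of 9 against 12.0% of all genes. Psenen came nearest, at 0.31 (SE 0.15, adjusted p = 0.420), followed by Psen2 at 0.20 (SE 0.11, adjusted p = 0.437). For 170 against 90 min it was 0 of 9 against 1.30%, and the values ran from -0.29 for Aph1a to 0.10 for Psenen. The 95% interval of Adam10 in that comparison was -0.07 to 0.21 and that of Rbpj -0.17 to 0.19.

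**Figure D4:**
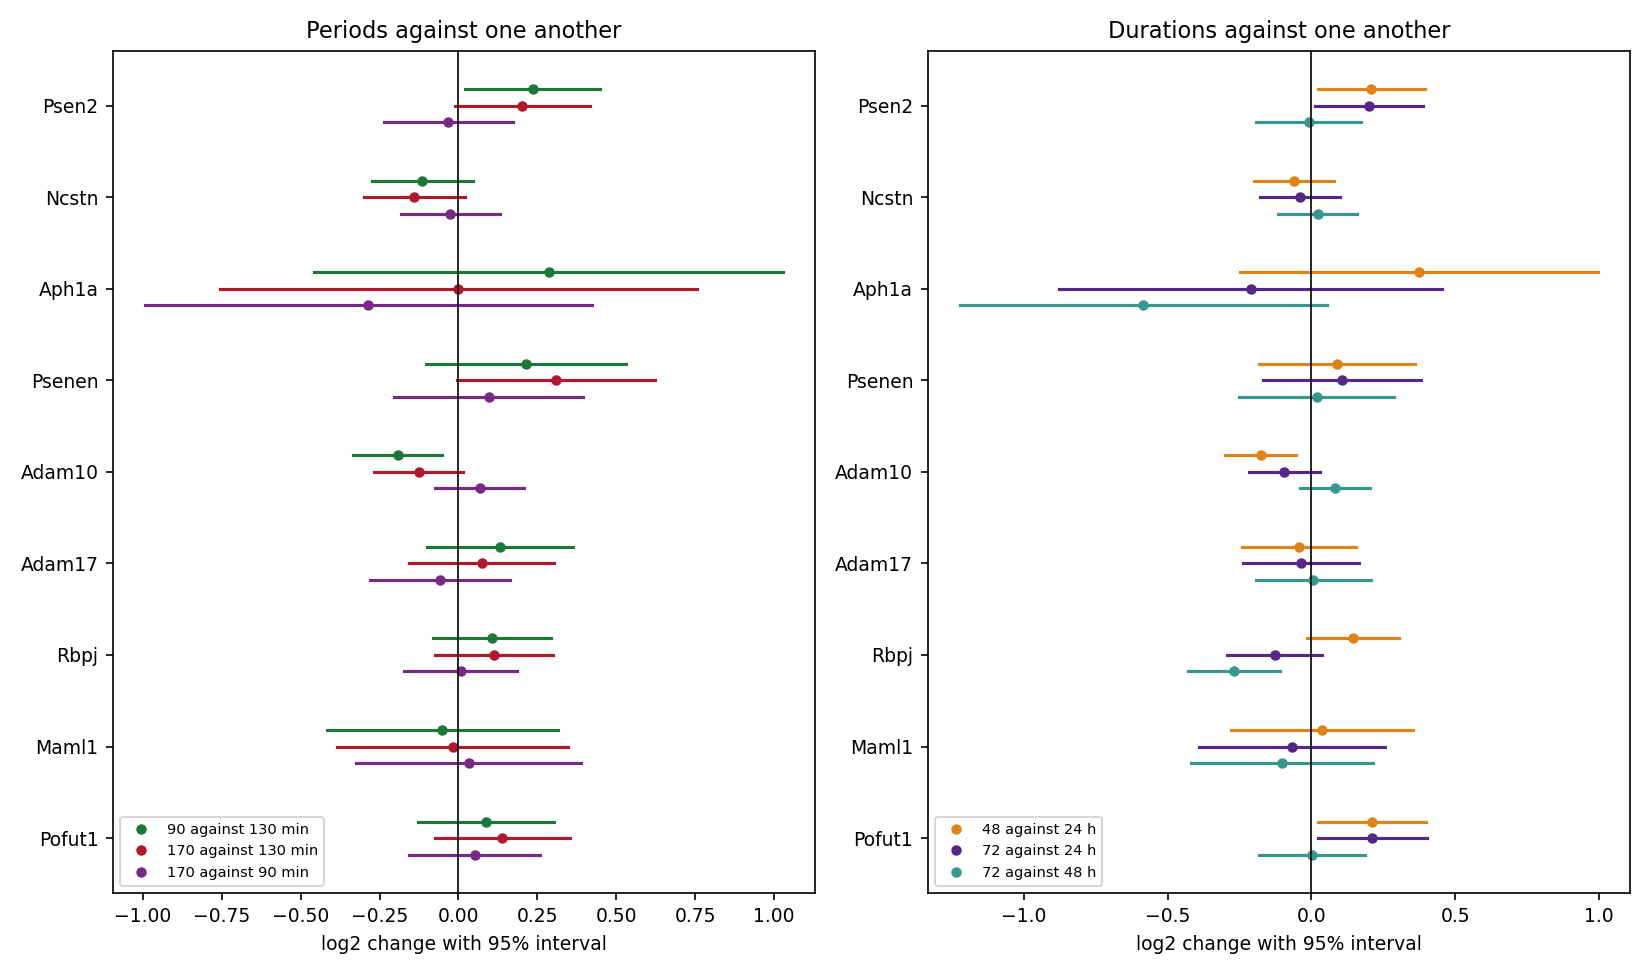
Log2 change of each gene between pulse periods, averaged over durations (left), and between durations, averaged over treatments (right), as points with 95% intervals on the horizontal axes. Rbpj at 72 against 48 h, at -0.27, has the interval farthest from 0 relative to its width, and Aph1a has the widest intervals in both panels.

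Across durations, averaged over the 4 treatments, 0 of 9 members were called. At an unadjusted p under 0.05 there were 3 of 9 for 48 against 24 h against 9.63% of all genes, 2 of 9 for 72 against 24 h against 14.8%, and 1 of 9 for 72 against 48 h against 12.6%. Adjusted calls over all genes stood at 0% for 48 against 24 h and 72 against 48 h and at 0.157%, or 18 genes, for 72 against 24 h. Within single treatments 0 of 9 members were called between 72 and 24 h, beside 0.209% of all genes at 130 min and 0% in the other groups.

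Rbpj had the smallest p-value of any member in any comparison, an unadjusted edgeR p-value of 0.00161 at 72 against 48 h. Its lowest, median and highest levels were 44.1, 61.2 and 74.5 CPM in the 12 libraries of 24 h, 58.2, 66.2 and 83.5 CPM at 48 h and 47.5, 55.6 and 66.6 CPM at 72 h. Means at 48 and 72 h were 62.6 ± 5.68 and 55.1 ± 0.928 CPM in DMSO, and 71.9 ± 10.2 and 58.5 ± 5.08 CPM at 90 min (SD, n = 3). They were 67.7 ± 8.61 and 51.4 ± 5.13 CPM at 130 min, and 68.1 ± 4.57 and 58.0 ± 8.06 CPM at 170 min. The 48 h mean was higher in every treatment, and single libraries overlapped at 170 min and not in DMSO, at 90 min or at 130 min. Among all genes, 48 and 72 h libraries did not overlap for 8.81% in DMSO, 10.2% at 90 min, 13.7% at 130 min and 14.3% at 170 min, and among the 9 members for 1, 1, 2 and 0. The log2 difference was -0.27 (SE 0.079, adjusted p = 0.205), and leaving out libraries moved it between -0.30 and -0.22. With same-numbered libraries of DMSO and 90 min, and of 130 and 170 min, blocked within each duration, the adjusted p was 0.0509. That block was chosen after seeing the data and takes out spread between the very libraries this comparison sets against each other. With blocks of replicate number within each duration, the smallest adjusted p of any member in any comparison was 0.188. With numbers over all durations it was 0.216.

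Adam10 was 197, 258 and 307 CPM at 24 h (lowest, median and highest of 12), 203, 227 and 255 CPM at 48 h and 201, 243.5 and 274.5 CPM at 72 h. The highest 24 h libraries exceeded all later ones, and the ranges overlapped. The log2 difference for 48 against 24 h was -0.18 (SE 0.060, adjusted p = 0.423), and -0.15 with the library total in the model. Without replicate 2 of every group it was -0.11.

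Psen2 had medians of 58.1, 69.1 and 69.5 CPM at 24, 48 and 72 h, and Pofut1 of 45.1, 51.0 and 51.6 CPM. Both therefore had their lower median at 24 h. Against 24 h, Psen2 differed by 0.21 (SE 0.092, adjusted p = 0.481) at 48 h and 0.20 (SE 0.093, adjusted p = 0.307) at 72 h. For Pofut1 these were 0.21 (SE 0.092, adjusted p = 0.477) and 0.21 (SE 0.093, adjusted p = 0.279). In DMSO alone Pofut1 differed by 0.50 (SE 0.20, adjusted p = 0.843) between 72 and 24 h, using the same 24 h DMSO libraries as the pulse comparison above. Without DMSO 72 h replicate 3 it was 0.35. The remaining members, Ncstn, Aph1a, Psenen, Adam17 and Maml1, had unadjusted p-values from 0.0644 (Aph1a at 72 against 48 h, -0.58) to 0.944 across these 3 comparisons.

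Around the members, 8 lists of pathway genes were counted, with 100 genes, of which 98 had rows and 77 were tested. No listed gene was called in any comparison. For all periods against DMSO the median log2 difference was -0.08 over 5 tested genes of the gamma-secretase complex and its modulators, 0.01 over 8 sheddase regulators, 0.01 over 13 other substrates, 0.07 over 6 receptors and ligands, 0.03 over 10 glycosylation genes, -0.02 over 14 trafficking genes, -0.02 over 17 nuclear cofactors and -0.08 over 4 target genes. That of all genes was 0.0041. At an unadjusted p under 0.05, 6.67% of all genes and 6 of the 77 listed genes had passed, 3 in each direction.

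Rer1, which retains unassembled gamma-secretase subunits early in the secretory route, had the smallest p-value of its list, at -0.17 (SE 0.076, adjusted p = 0.544) for 170 min against DMSO. Among receptors and ligands it was Dll4, a Delta-like ligand of secretory cells, with medians of 44.2 CPM in DMSO and 64.1 CPM at 90 min and a difference of 0.54 (SE 0.14, adjusted p = 0.543). Hes1, the classic transcriptional target of cleaved Notch, led its list at 24 h, with a difference of -0.44 (SE 0.13, adjusted p = 0.458) between 90 min and DMSO. Over all durations Hes1 had medians of 327 CPM in DMSO, 292 CPM at 90 min, 359 CPM at 130 min and 340 CPM at 170 min. Tnf led the other substrates, at -0.87 (SE 0.23, adjusted p = 0.359) for 130 min against DMSO. Rhbdf2 at 0.44 (adjusted p = 0.360) and Kdm1a at 0.29 (adjusted p = 0.336) led their lists for 90 against 130 min. Nedd4 led its list at -0.24 (adjusted p = 0.285) for 170 against 130 min. Slc35c1 did so at -0.41 (adjusted p = 0.312) for 170 min against DMSO at 24 h. Several defining genes of the pathway were too rarely counted to test, among them Notch1 with 171 counts over 36 libraries, Notch4 with 168, Lfng with 211, Nrarp with 116 and Hes5 with 48.

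**Figure D5:**
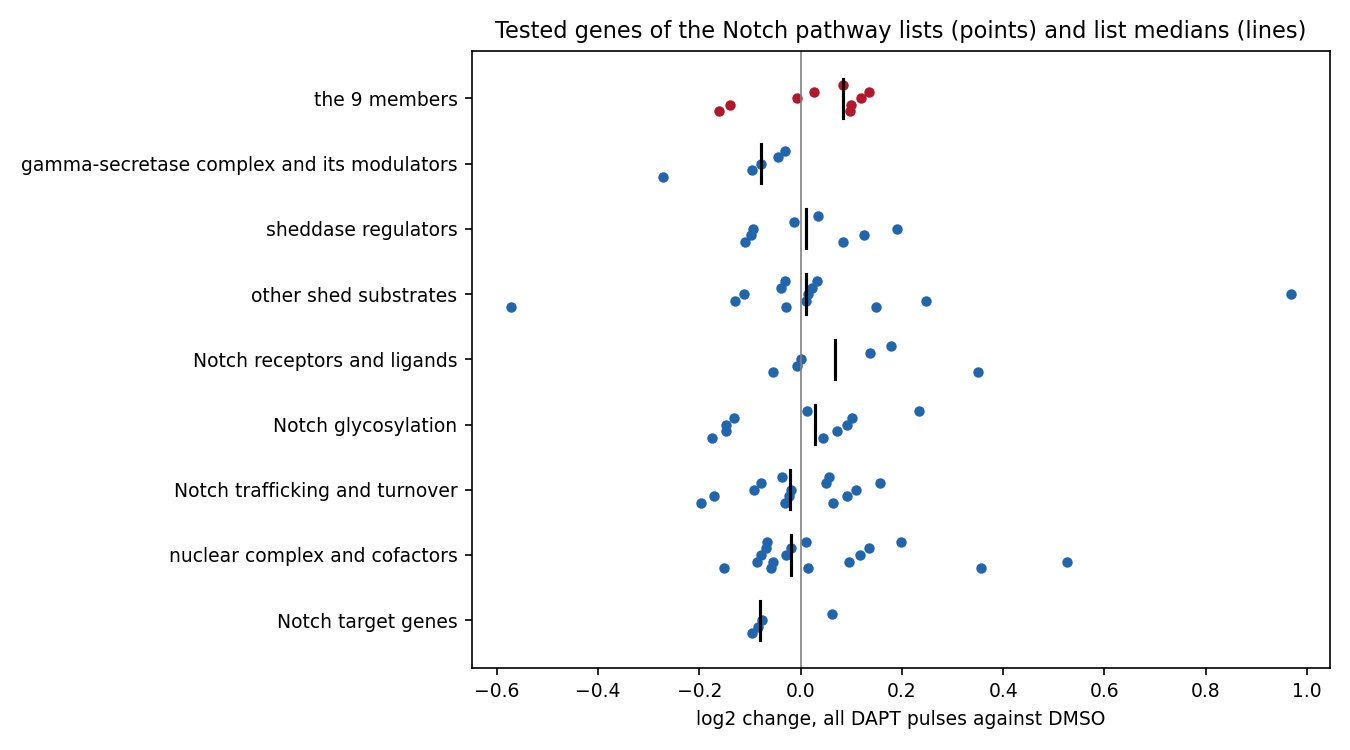
Log2 change for all DAPT periods against DMSO (horizontal axis), with 1 point for each tested gene, the 9 members on top and the 8 pathway lists under them, and a black line at each median. The members' median is 0.08 and the list medians lie between -0.08 and 0.07.

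The 9 members did not share one pattern. Over log2(CPM + 1) in 36 libraries, 18 of their 36 pairs had a positive Pearson r and 18 a negative one, with a median of 0.00927. The highest was 0.431 for Psen2 with Psenen and the lowest -0.44 for Psen2 with Adam10. Ncstn with Adam10 stood at 0.369. These values are descriptions over libraries that share groups and depth.

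The genes whose levels ran most like each member were found by the same r over 36 libraries. Adam10 had the closest matches, Purb at 0.889, Perp at 0.821 and Cldn2 at 0.806. Next came Ncstn with Yipf4 at 0.713, Cryl1 and Vcp both at 0.675, then Adam17 with Chm at 0.709, Ice1 at 0.615 and Rbm48 at 0.612. Psen2 ran with Dhx30 and Mkrn2, both at 0.692, and Thada at 0.668, and Pofut1 with Muc3a at 0.692, Tram2 at 0.672 and Nuak2 at 0.654. For Rbpj they were Trmt10b at 0.69, Ing3 at 0.66 and Extl2 at 0.651. Aph1a paired with Pias4 at 0.652, Rpl10a at 0.619 and Flad1 at 0.617, and Maml1 with Dnase1l1 at 0.61, Hic2 at 0.608 and Iqsec1 at 0.598. Psenen had the loosest, 9130604C24Rik at 0.563, Mrps36 at 0.562 and Dhx58 at 0.541.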

How the data were processed

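The 36 libraries hold polyadenylated RNA, made by the Sort-seq method per the labels. The tools named in the submitters' processing notes are STAR 2.7.8a, an aligner, and UMI-tools 1.1.1, which counts molecules. Each deposited value is a count of molecules for a gene symbol, whole and not normalized. Genome build, annotation and strand setting: not given in the sources used here. Table columns were matched to samples by name.

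The members, lists and tests here were chosen with earlier results of these data known. Tests used edgeR 4.0.16 in R 4.3.3: filterByExpr (11462 of 34197 genes kept), TMM, 12 group coefficients with 24 residual degrees of freedom, robust quasi-likelihood F tests, and Benjamini-Hochberg adjustment over all tested genes at 0.05. Tests were two-sided, except that the interaction F test has no direction. The biological coefficient of variation was 0.145. CPM use TMM-scaled totals, except those of cell type markers, which use plain totals, and intervals of 95% come from the fitted standard errors. The procedure was run on simulated counts with independent libraries and the same spread for all genes. Those lacked the links to library total and replicate number seen here, so the run says nothing of their effect. Counting error limits genes with few molecules, and groups of 3 limit every comparison. Members were all described, each list could name its gene with the smallest p over treatment comparisons, and likeness took the 3 genes with the highest r. Alternatives were DESeq2 1.42.0 and its size factors, plain totals, other filters, limma 3.58.1, the library total as a covariate, replicate blocks and leaving out libraries. Overlapping genes were read from GENCODE M21, by symbol.

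Replicate numbers come from the sample titles. Deviations from group means of same-numbered libraries correlated above 0.1 in 9 of 9 pairs of DMSO with 90 min (0.119 to 0.482) and 9 of 9 pairs of 130 with 170 min (0.214 to 0.606), but in at most 4 of 9 pairs otherwise, so those sets were treated as paired in one alternative, chosen after seeing the data.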

Additional observations from a re-analysis of the deposited data

How the results depend on the processing

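Each of the 24 comparisons was refitted under 49 alternatives, and 0 members were called in each of the 1176 counts. Of 10143 single values 9750 kept their sign (96.1%), and the 393 that turned were uncalled. The smallest adjusted p of any member was 0.0509, for Rbpj at 72 against 48 h (-0.28) in the replicate block by pairs of treatments, which changed no member's call. In that paired fit Adam10 at 90 min against DMSO was -0.23 (adjusted p = 0.341). Over all genes the paired fit called 1 gene for 90 min against DMSO and 0 for 170 against 130 min, the comparisons within its blocks. For 72 against 24 h it called 833 genes against 18, and at 130 min alone 718 against 24. Blocks lie inside a duration and a pair of treatments, so by construction they remove spread between the libraries that such comparisons set apart. It also called 551 genes for 72 against 48 h, 279 for 72 against 24 h at 170 min, 174 for 130 min against DMSO at 72 h, 79 for the interaction and 70 for 48 against 24 h, each against 0. Averaged over durations it called 8 genes for 130 min, 5 for 170 min and 9 for all periods against DMSO, each against 0. It called 11 for 90 against 130 min and 11 for 170 against 90 min, again against 0. At 24 h it called 7 genes for 130 min and 13 for 170 min against DMSO, and at 48 h 2 for each. For 170 min against DMSO at 72 h it called 16. For 72 against 24 h, and at 130 min alone, DESeq2 called 102 and 148 genes, no filter 304 and 266, limma 1 and 86, the library total as a covariate 12 and 87, and the replicate block within each duration 105 and 203. Plain library totals gave 9 and 22, the stricter filter 12 and 24, and the block of numbers over all durations 12 and 14. Without replicate 1, 2 or 3 of every group the first count was 14, 9 and 20 and the second 0, 0 and 60. With no filter, 72 against 48 h called 132 genes and 130 min against DMSO at 72 h called 52, each against 0. Over the 39 ways of leaving out libraries, 90 min against DMSO ranged from -0.29 to -0.17 for Adam10 and from -0.31 to -0.13 for Ncstn. The library total in the model moved the Adam10 values by more than 1.5 times, to -0.14 at 90 min and -0.06 at 170 min. The Ncstn values also moved by more than 1.5 times, from -0.19 to -0.12 at 90 min and from -0.22 to -0.14 at 170 min. With 1 to 20 counts per library, Aph1a was limited by depth.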
